A study of Homo sapiens with 2 samples.

Results

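The mitochondrial carrier SLC25 family was described in hypoxic MDA-MB-231 cells, a long-established line from human breast cancer. Members were the protein-coding genes whose symbol is SLC25A followed by a digit and whose transcript cluster, the unit that the array reports for a gene, is named in the platform table. This rule found 2 members, SLC25A15 and SLC25A2, of 11916 protein-coding genes named on the array. RefSeq lists 48 protein-coding SLC25A symbols. The other 46, among them the ADP/ATP carriers SLC25A4, SLC25A5, SLC25A6 and SLC25A31 and the phosphate carrier SLC25A3, are not analysed here, so the values below describe the ornithine carriers and not the family.

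Per the labels, cells of one group received compound 1 and cells of the other a miR-544 antagomir, a synthetic oligonucleotide that binds and inhibits this microRNA. Treatment came 24 hours before hypoxia, which lasted 5 days at below 1% oxygen for both groups. The design text gives 3 samples that were pooled before hybridisation. Each treatment was measured on 1 array, so no value has a replicate error and no test between treatments can be made. No untreated or normoxic array was used here.

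Mitochondrial carriers are proteins of the inner mitochondrial membrane that exchange metabolites between the cytosol and the matrix. They are made in the cytosol and enter through the outer membrane translocase, small chaperones of the intermembrane space and the TIM22 translocase. SLC25A15 exchanges cytosolic ornithine for citrulline from the matrix, a step of the urea cycle, and its inherited loss causes hyperornithinemia-hyperammonemia-homocitrullinuria syndrome. SLC25A2 is a close paralogue that also carries ornithine and other basic amino acids.

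The agents share miR-544 as their stated target, so the mature RefSeq sequences (GRCh38.p14) are shown as the common point of the treatments, with the seed, bases 2 to 8, in capitals. The labels do not say which of them was targeted. The first lies at chr14:101048712-101048733 and the other at chr3:124732486-124732507, each on the plus strand.
hsa-miR-544a: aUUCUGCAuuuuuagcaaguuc
hsa-miR-544b: aCCUGAGGuugugcauuucuaa
Their seeds differ, and neither was searched for in the carrier transcripts.

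SLC25A15 was lower on the compound 1 array, and SLC25A2 was nearly equal on both. SLC25A15 (gene 10166, cluster 16774235) had a log2 level of 7.41 with compound 1 and 7.67 with the antagomir. The difference, compound 1 minus antagomir, was -0.26, or 1.20-fold lower on the compound 1 array. SLC25A2 (gene 83884, cluster 17000850) had a log2 level of 6.12 with compound 1 and 6.14 with the antagomir. Its difference of -0.018 amounts to 1.01-fold. Each gene has 1 cluster, so no second cluster was at hand to check either value. Cluster levels depend on their probes and were not compared between genes.

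**Figure D1:**
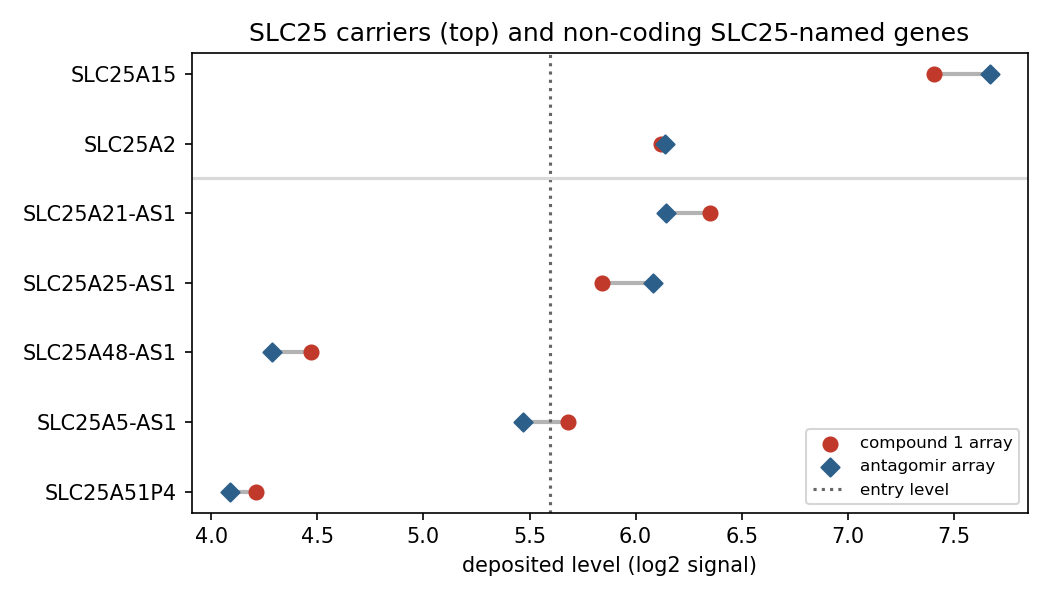
Deposited log2 level (horizontal axis) of each SLC25 carrier, above the grey line, and of each non-coding gene with an SLC25A symbol, below it. Circles are the compound 1 array, diamonds the antagomir array and the dotted line the entry level of 5.60; SLC25A15 shows a gap of 0.26 and the symbols of SLC25A2 nearly coincide.

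Both members lay above the entry level, the 50th percentile of mean cluster levels, which was 5.60. Neither passed 1.5-fold in either direction, and among all protein-coding genes 1.13% did (0.655% higher and 0.478% lower). Both were lower on the compound 1 array, as were 54.3% of all protein-coding genes. The median difference was -0.14 over the 2 members and -0.023 over all protein-coding genes.

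In the absence of replicates, the spread of differences among protein-coding genes at like level gives a scale for these values, although it is no replicate error. Genes were divided into 20 bins of mean level, and the robust SD (from the median absolute deviation) was taken in each. The 596 genes in the bin of SLC25A15 had a median difference of -0.049 and a robust SD of 0.18, with 5th and 95th percentiles of -0.33 and 0.22. SLC25A15 thus lay 0.21 below the median of its bin, more than 1 robust SD but inside these percentiles. Of all protein-coding genes, 9.24% had a lower difference. The 596 genes in the bin of SLC25A2 had a median of 0.044 and a robust SD of 0.19. SLC25A2 lay 0.061 below that median, within 1 robust SD.

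The carriers did not part from each other by more than this spread. The difference of SLC25A15 minus that of SLC25A2 was -0.24, or -0.15 once the bin medians were taken off, and the combined robust SD of both bins was 0.26.

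**Figure D2:**
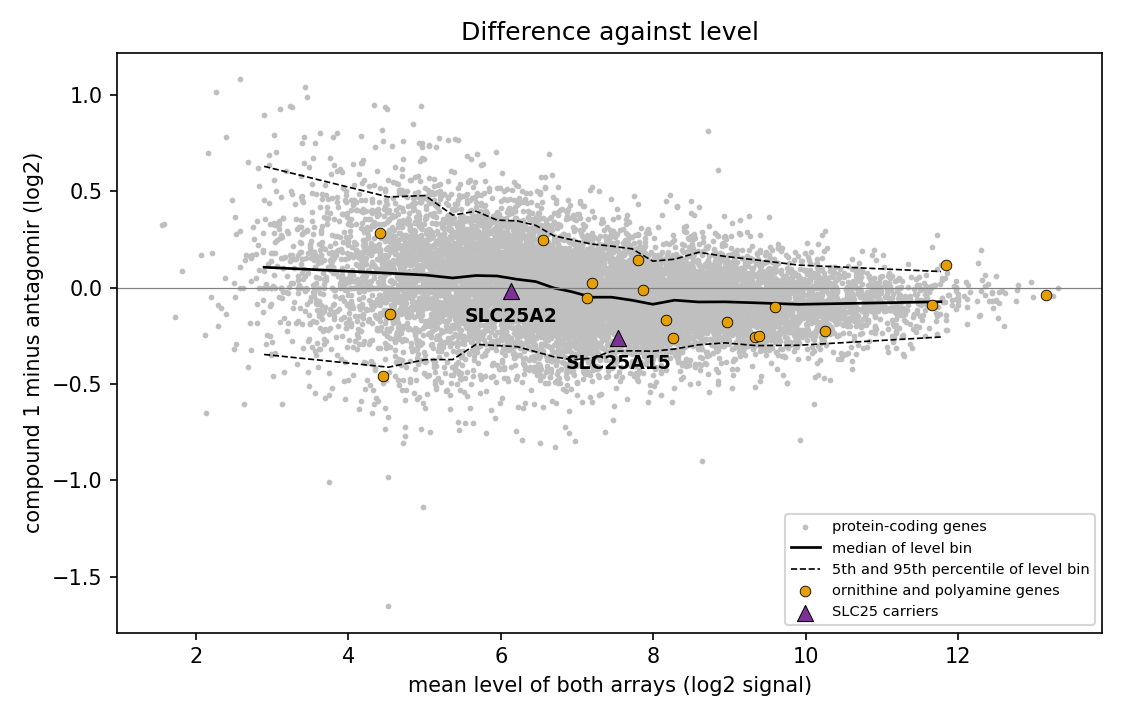
Difference of compound 1 minus antagomir (log2, vertical axis) against the mean level of both arrays (log2 signal) for protein-coding genes, in grey; lines are the median and the 5th and 95th percentiles in 20 level bins, circles the ornithine and polyamine genes and triangles the SLC25 carriers. SLC25A15 at -0.26 lies between the median and the lower percentile of its bin, and SLC25A2 at -0.018 lies close to its bin's median.

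In RefSeq gene order SLC25A15 stands between MRPS31, which encodes a mitochondrial ribosomal protein, and the transcription factor gene ELF1. MRPS31 had 7.86 with compound 1 and 7.89 with the antagomir, and ELF1 had 9.48 with compound 1 and 9.40 with the antagomir. Of the 9 named genes among the nearest 6 protein-coding genes on each side of SLC25A15, 7 were lower on the compound 1 array, with differences from -0.23 to 0.085. SLC25A2 stands between the protocadherin gene PCDHB15 and TAF7, a subunit gene of the general transcription factor TFIID, which is not named in the table used here. The 6 named neighbours of SLC25A2 are all protocadherin beta genes, cell adhesion genes expressed mainly in neurons, and all lie on the same side of it. PCDHB10, PCDHB11, PCDHB12 and PCDHB15 stayed under the entry level with both agents. Of the 6 neighbours 4 were lower, with differences from -0.15 to 0.33, so that SLC25A2 lay inside the range of its neighbours and SLC25A15 lay just below that of its own.

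A further 5 genes carry an SLC25A symbol and code for no protein, and the rule leaves them out. Of these, 4 were higher on the compound 1 array and 1 was lower, and 0 passed 1.5-fold, beside 1.13% of all protein-coding genes. Protein-coding genes at like level leaned higher too, with bin medians from 0.044 to 0.11. The 4 higher genes lay within 1 robust SD of the median of their bins. SLC25A5-AS1 had 5.68 with compound 1 and 5.47 with the antagomir. SLC25A21-AS1 had 6.35 with compound 1 and 6.14 with the antagomir, a difference of 0.21 as for SLC25A5-AS1. The exception was SLC25A25-AS1, with 5.84 with compound 1 and 6.08 with the antagomir (-0.24). SLC25A48-AS1 (4.47 with compound 1, 4.29 with the antagomir) and the pseudogene SLC25A51P4 (4.21 with compound 1, 4.09 with the antagomir) stayed under the entry level with both agents. The coding genes that these 4 antisense RNAs and the pseudogene are named after are not analysed here, so no antisense RNA could be set beside its sense partner.

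Of the named genes whose enzymes handle ornithine itself, OTC and ODC1 were higher on the compound 1 array, OAT was nearly equal and GATM, under the entry level, was lower (-0.13). Of 22 listed genes of the urea cycle, ornithine and polyamines 18 were named, 13 were lower (72.2%, beside 54.3% of all protein-coding genes) and 5 higher. Shares of lower genes depended on level. Among genes that reached the 75th percentile of mean levels (7.10), 78.6% of 14 listed genes and 68.4% of protein-coding genes were lower. The median difference of the 18 genes was -0.096 (-0.035 after quantile normalization and -0.030 after cyclic loess). Over all protein-coding genes it was -0.023 (0.0052 and -0.0054 after these scalings). The gene of the matrix enzyme that joins imported ornithine to carbamoyl phosphate, OTC, stayed under the entry level at 4.55 with compound 1 and 4.27 with the antagomir, and its difference of 0.28 was the highest of the list. NAGS, which makes the activator of carbamoyl phosphate synthesis, had 9.21 with compound 1 and 9.46 with the antagomir, a difference of -0.25. The later urea cycle genes lay on opposite sides of 0, argininosuccinate synthase ASS1 at 0.14 and argininosuccinate lyase ASL at -0.17.

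OAT, the matrix enzyme that interconverts ornithine and glutamate semialdehyde, had 7.85 with compound 1 and 7.86 with the antagomir, and its difference of -0.012 turned sign after quantile normalization and cyclic loess. ODC1, which decarboxylates ornithine to putrescine in the cytosol, had 11.90 with compound 1 and 11.78 with the antagomir, a difference of 0.12. Downstream of it the spermine synthase gene SMS (-0.22), the polyamine acetyltransferase gene SAT1 (-0.25) and the spermine oxidase gene SMOX (-0.26) were lower. The other polyamine oxidase gene of the list, PAOX, was higher, at 6.67 with compound 1 and 6.42 with the antagomir (0.25). The polyamine synthesis genes SRM (-0.090) and AMD1 (-0.10) were lower but lay close to the medians of their level bins. Lowest of the list was OAZ3 at -0.46, an antizyme gene known from testis, which stayed under the entry level with both agents. None of the 18 passed 1.5-fold, beside 1.13% of all protein-coding genes.

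Of the lists on other mitochondrial functions, 60 genes were named. Of these 43 were lower (35 after quantile normalization and 33 after cyclic loess), the median was -0.087 (-0.014 and -0.019 after these scalings), and 0 passed 1.5-fold. Among genes that reached the 75th percentile of mean levels, 76.9% of 52 were lower, beside 68.4% of protein-coding genes, whose median was then -0.073. Without a filter on level, 54.3% of all protein-coding genes were lower (48.8% after quantile normalization and 51.1% after cyclic loess). Their median was -0.023 (0.0052 and -0.0054 after these scalings), and 1.13% passed 1.5-fold. These shares stand as background for each list that follows, whose genes were not matched on level. The machinery that imports carriers had 12 of 13 genes named, 10 of them lower (9 after either scaling), and the median was -0.094 (quantile normalization gave -0.016 and cyclic loess -0.023). Lowest was TIMM8A, a small intermembrane space chaperone gene (-0.43), and highest was TIMM22, the channel subunit through which carriers enter the inner membrane (0.11). TOMM70, the receptor for carrier precursors, had 8.97 with compound 1 and 9.06 with the antagomir.

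Other transport genes of the inner membrane, the sideroflexins and the calcium uniporter genes among them, were named in 8 of 11 cases. All 8 were lower (5 after cyclic loess), from SFXN2 at -0.28 to LETM1 at -0.0035, and LETM1 turned sign after quantile normalization and cyclic loess. SFXN1, a serine transporter, was at -0.26. Of the pyruvate carrier and porin genes 4 of 5 were lower (3 after quantile normalization or cyclic loess, which turned MPC2), with VDAC3 at -0.16 and MPC1 higher at 0.18, and the median was -0.12 (-0.047 after quantile normalization). MTCH2, an outer membrane relative of the carriers, was at -0.26 and MTCH1 at -0.053, which turned sign after cyclic loess.

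Among enzymes that feed the carriers, 7 of 18 listed citric acid cycle genes were named. Of these 5 were lower (3 after quantile normalization or cyclic loess, which turned CS and DLD), from IDH3G at -0.22 to DLST at 0.035. Of 12 listed shuttle enzymes 4 were named and 2 of them were lower. Glutamate dehydrogenase GLUD1 was at -0.45 and the mitochondrial phosphoenolpyruvate carboxykinase gene PCK2 at 0.059. Of 11 listed one-carbon and proline genes 6 were named. Of these 5 were lower (3 after quantile normalization or cyclic loess), from MTHFD1L at -0.24 to MTHFD2L at 0.087. The list of carnitine and fatty acid oxidation genes had 4 of 10 genes named. These 4 were higher (3 after centring), from the acetyltransferase gene CRAT at 0.028 to CPT1C at 0.43. CRAT turned sign after centring, and the other cluster of CPT2 was lower (-0.15 against 0.060).

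Of 12 listed iron-sulfur and heme genes 8 were named. Of these 5 were lower, and differences ran from ISCU at -0.26 to FTMT, a mitochondrial ferritin gene under the entry level, at 0.45. Of 10 listed biogenesis regulators 3 were named, with NRF1 lowest at -0.46 and ESRRA highest at 0.22. The ATP synthase list had 1 of 16 genes named, the inhibitor gene ATP5IF1, at -0.17. Differences of like size can stand differently among genes at like level. FTMT at 0.45 lay under the 95th percentile of its bin (0.63), and CPT1C at 0.43 lay above that of its own (0.15).

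**Figure D3:**
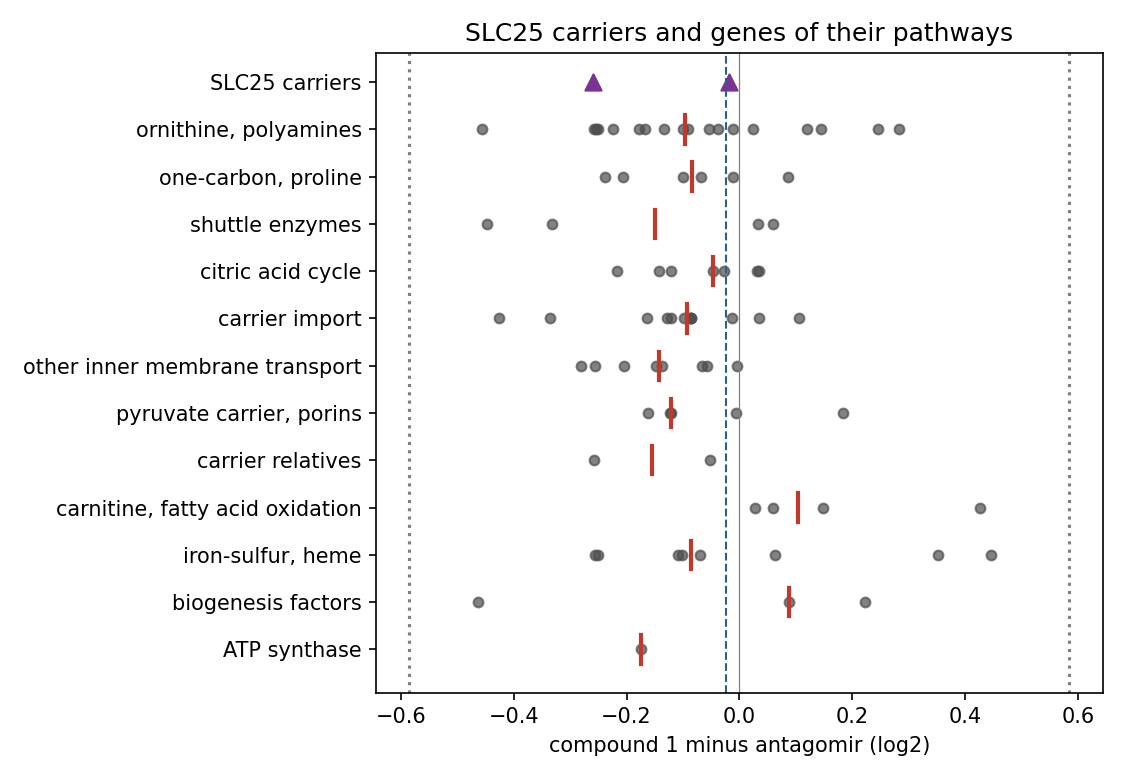
Difference of compound 1 minus antagomir (log2, horizontal axis) of the SLC25 carriers, as triangles, and of the named genes of each list, as circles, with the list median as a red bar. The dashed line is the median of all protein-coding genes (-0.023) and the dotted lines are 1.5-fold; no circle or triangle reaches a dotted line, and the carnitine and biogenesis lists are those whose median lies above 0.

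Of 21 named protein-coding SLC genes outside the family 5 were lower (3 to 7 under the scalings), with a median of 0.084 (0.054 to 0.095 under the scalings) and differences from -0.18 to 0.22, so SLC25A15 lay below this range and SLC25A2 inside it. Of 73 mitochondrial ribosomal protein genes 59 were lower (48 after quantile normalization or cyclic loess), with a median of -0.12. Of all protein-coding genes 54.3% were lower (48.8% with quantile normalization, 51.1% with cyclic loess), with a median of -0.023. Where protein-coding genes reached the 75th percentile of mean levels, 68.4% were lower and the median was -0.073. Differences of the ribosomal protein genes ran from -0.44 to 0.19, and both carriers lay inside that range. With 2 members and 1 array per treatment these positions are descriptions, not matched on level, and no test of the difference was possible.

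The labelled cell line was checked against listed markers. The mesenchymal and basal markers AXL, VIM and CD44 had log2 levels of 12.77, 10.49 and 9.04 with compound 1 and 12.78, 10.61 and 9.08 with the antagomir. Also listed as high, the keratin gene KRT18 had 11.18 with compound 1 and 11.28 with the antagomir. The oestrogen and progesterone receptor genes ESR1 and PGR stayed under the entry level with both agents. EPCAM (7.05 with compound 1, 6.91 with the antagomir) and GATA3 (7.44 with compound 1, 7.27 with the antagomir), listed as low in this line, were above it. CAV1 and CDH1 are not analysed here.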

How the data were processed

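For each array the deposited table lists 53617 transcript clusters with a value each. These deposited values were taken as log2 signal from their range (0.37 to 14.20 on the compound 1 array and 0.61 to 14.19 on the antagomir array). How background and arrays were adjusted, and the log base, are not given in the sources consulted; folds assume base 2. Per the labels' protocols, 5 µg of total RNA went into biotinylated cRNA. The number of arrays limits the precision. Of the clusters 16098 have 1 gene symbol in the platform table, 0 have several and 37519 have none here. Every one of the 16098 identifiers matched RefSeq (GRCh38.p14), used for symbols, gene types and gene order, with 0 symbols updated.

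A gene was represented by its cluster of highest mean level, without scaling or a filter on level. The main settings, the members and the lists were chosen with earlier results of these data known; the ornithine and polyamine list was added once the members were known. Named were both members and, of each list, the lowest and highest gene. NAGS, ASS1, ASL, OAT, ODC1, SMS, SAT1, SMOX, PAOX, SRM, AMD1, TOMM70, SFXN1 and the neighbours were added. The code for the level bins and fold counts was tested on simulated data, with some genes moved by a known fold. The simulation held no shift of the median with level, so it does not bear on the members' bin medians. Alternatives were centring, quantile normalization, cyclic loess, entry at the 50th or 75th percentile of level, other choices of cluster, and a lower and a higher fold. Python 3.11.15, numpy 2.4.6, pandas 2.3.3, matplotlib 3.10.9, R 4.3.3 and limma 3.58.1 were used.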

Additional observations from a re-analysis of the deposited data

How the results depend on the processing

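SLC25A15 stayed lower in every setting run, from -0.29 after centring to -0.21 after quantile normalization, and so did SLC25A2, from -0.050 after cyclic loess to -0.018, in each setting that kept it. When the entry level was raised to the 75th percentile (7.10), SLC25A15 was the 1 member left, the number of lower members was 1 and the median over members was -0.26, against -0.14 with both. Neither gene passed the lowest fold threshold tried, and few genes did: of 11916 protein-coding genes 602 passed it higher and 609 lower. With 2 members, that neither passed says little about them. Cluster choice could not alter the members' values, since each has 1 cluster, and a filter could only keep or remove a member. Among the lists, the pyruvate carrier and porin median was -0.047 after quantile normalization and -0.051 after cyclic loess. Lower genes numbered 3 of 7 in the citric acid cycle and 3 of 6 in the one-carbon and proline list after either scaling, 1 of 2 carrier relatives and 5 of 8 other transport genes after cyclic loess, and 1 of 4 carnitine genes after centring and under either other cluster choice. The cause was not tested. The settings for the ornithine list, the pooled lists, the other solute carriers and the ribosomal protein genes were chosen after seeing the data. Of 84 genes looked at, 14 turned sign in some setting. No paired analysis was possible because the treatments have 1 array each. The widest spread of differences was at low signal.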
